A study of Mus musculus with 45 samples.

Results

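Sphingosine-1-phosphate (S1P) acts on lymphocytes through 5 receptors, encoded by S1pr1 to S1pr5. These receptors were described here together with the 3 genes of the G protein arm that carries their signal: Gna13 (the Gα13 subunit), Arhgef1 (the exchange factor that Gα13 uses to switch on the small GTPase RhoA) and Gnai2 (the Gαi2 subunit). The members were named by symbol, and all 8 were found once each among the 55450 genes of the count table. RNA-Seq had been carried out on 45 samples of sorted lymphocytes from the draining popliteal lymph nodes of mice 8 to 12 weeks old, immunized in the hind footpad with an incomplete Freund's adjuvant emulsion of ovalbumin (OVA, 50 µg) and lipopolysaccharide (LPS, 5 µg). The mice were S1PR4-/- (strain B6.129P2-S1pr4tm1Dgen/J, a germline mutant backcrossed at least 10 times to C57/BL6, so that every cell type of the animal carried it) or wildtype (WT) littermates, males and females. T follicular helper cells (Tfh, TCRβ+ CD4+ PD1+ CXCR5+) and non-Tfh cells (TCRβ+ CD4+ PD1- CXCR5-) had been sorted on Day 6, and germinal center (GC) B cells (B220+ GL7+ Fas+) and non-GC B cells (B220+ GL7- Fas-) on Day 9. Every group held 6 samples, except non-GC B cells with 5 WT and 4 S1PR4-/- samples. Because T cells and B cells were collected on different days, lineage and day cannot be told apart in any comparison between them.

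S1P is abundant in blood and lymph and scarce inside lymphoid tissue, and lymphocytes read this gradient. S1PR1 couples to Gαi proteins and draws lymphocytes toward S1P and out of the lymph node, whereas S1PR2 couples to Gα13 and, through ARHGEF1 and RhoA, inhibits migration and holds GC B cells and Tfh cells in the follicle center. S1PR3 can couple to Gαi, Gαq and Gα12/13 proteins, S1PR4 is found mainly on hematopoietic cells, and S1PR5 is best known for the egress of natural killer cells.

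The sorted samples carried the markers of their labels. The summed level of 12 B cell markers ranged from 8078 to 17881 CPM (the count scaled to a fixed library size) in the B cell samples, and that of 12 T cell markers ranged from 9114 to 12598 CPM in the T cell samples. B cell markers were also present at a low level in Tfh cells, with medians of 345.5 CPM in WT and 243.9 CPM in S1PR4-/- samples against 77.1 and 69.5 CPM in non-Tfh cells, and all 12 were detected in each WT Tfh sample. One S1PR4-/- GC B cell sample (replicate 3) stood apart in plasma cell markers, whose summed level was 17656 CPM against 2037 to 8334 CPM in the other 5. Without it the GC to non-GC log2 fold changes of S1PR4-/- B cells were -3.35 for S1pr1 and 8.26 for S1pr2, against the -3.23 and 8.19 given with all samples. Plasma cell markers, 7 genes, were higher in GC B cells as a whole, with medians of 4742 CPM in WT and 4006 CPM in S1PR4-/- samples against 559.3 and 611.7 CPM in non-GC B cells, and their part in the B cell comparisons was not tested. Total expected counts ranged from 26299429 to 45548215 per sample.

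S1pr2 and S1pr3, the receptors that were higher in GC B cells, and S1pr4, which was lower there, are shown by the 250 bases before their RefSeq start, so that members with opposite patterns can be read side by side. A pair of short motifs was searched on both strands: the core CACCC, read by Krüppel-like factors such as KLF2, a known activator of S1pr1, and the E-box CAGGTG, read by E proteins. Capitals mark each match (CACCC or its reverse complement GGGTG, and CAGGTG or its reverse complement CACCTG), and the sequences run 5′ to 3′ on the strand of the gene (RefSeq, GRCm38.p6, which is mm10). The S1pr2 window lies at chr9:20976794-20977043 on the minus strand, the S1pr3 window at chr13:51408368-51408617 on the plus strand, and the S1pr4 window at chr10:81500138-81500387 on the minus strand.
S1pr2: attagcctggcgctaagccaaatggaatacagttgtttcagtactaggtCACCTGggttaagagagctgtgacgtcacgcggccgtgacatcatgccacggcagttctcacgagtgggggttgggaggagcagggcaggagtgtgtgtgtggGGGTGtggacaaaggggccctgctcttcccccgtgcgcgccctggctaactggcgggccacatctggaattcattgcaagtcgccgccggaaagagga
S1pr3: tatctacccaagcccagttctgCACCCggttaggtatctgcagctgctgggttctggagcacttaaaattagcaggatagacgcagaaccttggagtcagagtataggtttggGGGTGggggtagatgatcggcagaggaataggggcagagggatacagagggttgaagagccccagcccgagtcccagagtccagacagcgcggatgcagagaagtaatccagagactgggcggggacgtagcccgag
S1pr4: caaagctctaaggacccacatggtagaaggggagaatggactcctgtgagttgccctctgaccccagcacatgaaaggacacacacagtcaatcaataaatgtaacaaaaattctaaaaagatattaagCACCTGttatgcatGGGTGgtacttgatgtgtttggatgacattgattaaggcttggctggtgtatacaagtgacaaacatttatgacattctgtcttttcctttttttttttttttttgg
The S1pr2 and S1pr4 windows each held 1 match to CACCC and 1 to CAGGTG, while the S1pr3 window held 2 matches to CACCC and none to CAGGTG. Of all 32851 windows of this length in the table, 52.0% held CACCC and 17.2% held CAGGTG. The matches are a description of these letters, and in the windows shown they do not separate S1pr4, which fell, from S1pr2 and S1pr3, which rose. The table also held windows for S1pr5, Gna13 and Arhgef1, which are not shown. Arhgef1, which fell, had a window with 1 match to CACCC and another with 0, and 0 matches to CAGGTG in either. Gna13, which rose, had 0 matches to both motifs, and S1pr5 had 2 to CACCC and 0 to CAGGTG. S1pr1, which also fell, and Gnai2 had no entry in the table, so no wider reading can be made.

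S1pr1 was highest in non-Tfh cells and lowest in GC B cells. In WT samples it ranged from 1215 to 1385 CPM in non-Tfh cells (median 1252), from 321.6 to 424.5 CPM in Tfh cells (median 394.9), and from 38.7 to 164.1 CPM in GC B cells (median 67.6). The 5 WT non-GC B cell samples were at 494.9, 487.6, 573.0, 478.3 and 503.7 CPM. No GC B cell sample reached the lowest non-GC B cell sample, and no Tfh cell sample reached the lowest non-Tfh cell sample, so that the egress receptor was lower in the GC population of both lineages. The log2 fold change was -1.74 in Tfh against non-Tfh cells (SE 0.07, adjusted p = 7.79e-11) and -2.61 in GC against non-GC B cells (SE 0.30, adjusted p = 6.21e-06) of WT mice. In S1PR4-/- mice it was -2.04 (SE 0.06, adjusted p = 1.7e-11) in T cells and -3.23 (SE 0.22, adjusted p = 3.29e-07) in B cells. One WT GC B cell sample (replicate 6, 164.1 CPM) lay well above the next at 91.6 CPM, and without it the WT B cell log2 fold change was -2.92 (adjusted p = 9.52e-08).

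S1pr2 moved in the opposite direction in both lineages. In WT GC B cells it ranged from 339.6 to 581.8 CPM (median 483.9), and the 5 WT non-GC B cell samples were at 2.49, 0.754, 7.12, 1.90 and 1.24 CPM. The mean of the GC B cells was 174.1-fold that of the non-GC B cells, and 294.4-fold without replicate 3, the non-GC B cell sample at 7.12 CPM (log2 fold change 8.25). No other member had as large a log2 fold change between the B cell populations of either genotype. It was 7.47 (SE 0.51, adjusted p = 9.73e-08) in WT and 8.19 (SE 0.25, adjusted p = 2.52e-09) in S1PR4-/- B cells. In T cells, S1pr2 ranged from 13.1 to 20.5 CPM (median 16.2) in WT non-Tfh cells and from 64.4 to 85.7 CPM (median 74.7) in WT Tfh cells, again without overlap. The log2 fold change was 2.20 (SE 0.12, adjusted p = 8.8e-10) in WT and 2.04 (SE 0.13, adjusted p = 9.64e-09) in S1PR4-/- T cells. The rise was larger in B cells than in T cells, with a difference between the WT log2 fold changes of 5.20 (SE 0.43, adjusted p = 2.03e-09). S1pr2 was lower in WT non-GC B cells than in non-Tfh cells (log2 fold change -2.51, SE 0.45, adjusted p = 0.000319) and higher in GC B cells than in Tfh cells (2.66, SE 0.13, adjusted p = 4.13e-10).

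The balance of the confinement receptor to the egress receptor could be read within each library, where neither depth nor scaling enters. In WT GC B cells there were 2.07 to 12.1 S1pr2 counts for every S1pr1 count (median 7.37), and in S1PR4-/- GC B cells 4.504 to 15.2 (median 9.11). All 12 GC B cell samples thus had more S1pr2 than S1pr1 counts. In Tfh cells S1pr1 still led, with medians of 4.94 S1pr1 counts per S1pr2 count in WT and 3.44 in S1PR4-/- samples, while non-Tfh cells had medians of 81.5 and 59.6 and non-GC B cells 251.1 and 334.9. Per kilobase of exon, which allows levels of different genes to be compared, S1pr2 was the leading receptor in 5 of 6 WT and in 6 of 6 S1PR4-/- GC B cell samples, and in no sample of the other populations. The S1pr2 gene model is long (7971 bases of exon against 3046 for S1pr1), and a transcript shorter than the model would have a higher level per kilobase than the one given. These lengths come from GENCODE M21, and the study names M30.

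**Figure D1:**
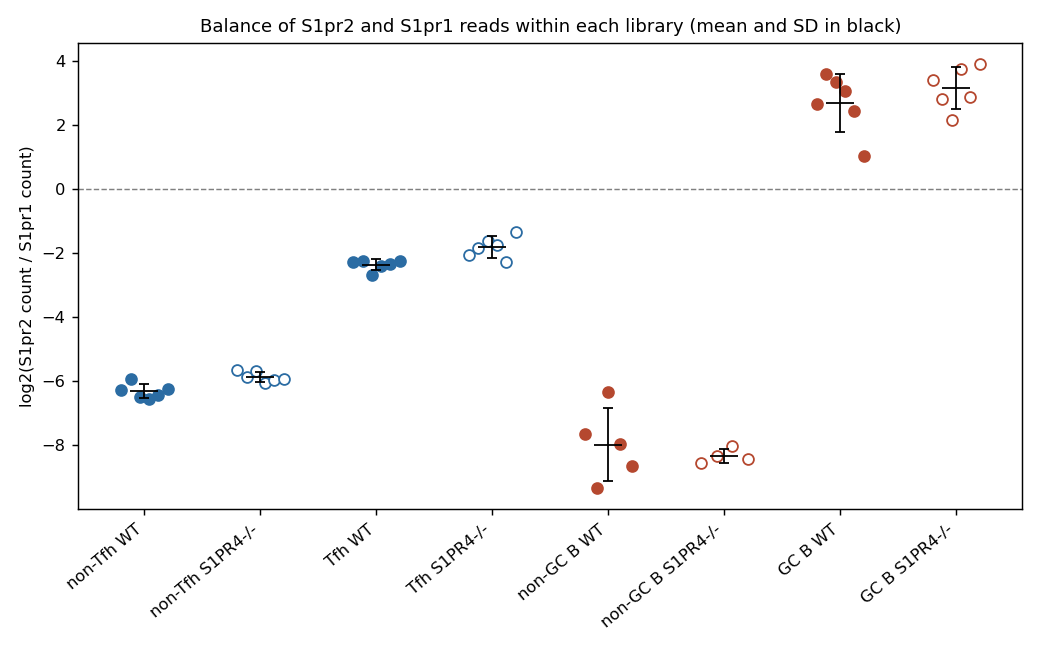
Log2 ratio of S1pr2 to S1pr1 expected counts in each sample (points), with the mean and SD of each group in black, for 4 populations in WT (filled) and S1PR4-/- mice (open). All 12 GC B cell samples lie above 0 and every other sample lies below it.

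S1pr3 was a receptor of B cells in these samples. In WT mice it ranged from 55.8 to 87.4 CPM in GC B cells (median 74.9) and was at 19.7, 23.3, 24.0, 17.5 and 9.45 CPM in the non-GC B cell samples. The groups did not overlap, and the log2 fold change was 2.03 (SE 0.21, adjusted p = 2.35e-06), with 2.36 (SE 0.22, adjusted p = 3.86e-06) in S1PR4-/- mice. In T cells S1pr3 was near the limit of counting, with 29 to 68 counts per WT Tfh sample and 0 to 14 per WT non-Tfh sample, or means of 1.26 ± 0.61 and 0.136 ± 0.165 CPM (SD, n = 6 each). The fitted log2 fold change was 3.22 (SE 0.68, adjusted p = 0.000665) in WT and 2.27 (SE 0.67, adjusted p = 0.00783) in S1PR4-/- T cells, where the 2 groups overlapped. In both T cell comparisons S1pr3 passed the filter only through Tfh cells, so the filter favoured a rise. B cell markers were also higher in Tfh than in non-Tfh cells, as given above, and with the B cell marker score of each sample as a covariate the log2 fold change was 2.71 in WT (adjusted p = 0.0316) and 2.05 in S1PR4-/- T cells (adjusted p = 0.0551). S1pr3 was 58.4-fold higher in the mean of WT GC B cells than of WT Tfh cells (log2 fold change 5.89, SE 0.27, adjusted p = 3.07e-10).

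S1pr4, the deleted receptor, followed S1pr1 rather than S1pr2. In WT samples it ranged from 118.6 to 163.8 CPM in non-Tfh cells (median 150.1), from 52.2 to 72.1 CPM in Tfh cells (median 65.6) and from 17.1 to 37.1 CPM in GC B cells (median 23.9), and the non-GC B cell samples were at 91.2, 91.7, 81.4, 93.2 and 96.9 CPM. None of the 4 WT groups overlapped, with non-Tfh cells highest, then non-GC B cells, Tfh cells and GC B cells. The log2 fold change was -1.18 (SE 0.09, adjusted p = 4.25e-08) in Tfh against non-Tfh cells and -1.83 (SE 0.17, adjusted p = 1.3e-06) in GC against non-GC B cells. The decrease was larger in B cells, for S1pr4 by -0.71 (SE 0.20, adjusted p = 0.00703) and for S1pr1 by -0.92 (SE 0.31, adjusted p = 0.0191) on the log2 scale.

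In S1PR4-/- samples, few S1pr4 counts were left. Tfh samples had 21, 18, 16, 40, 28 and 10 counts and non-Tfh samples 30, 29, 28, 30, 32 and 18, so that the WT means were 110.3-fold and 186.7-fold higher. GC B cell samples had 4, 1, 0, 1, 0 and 0 counts and non-GC B cell samples 4, 5, 6 and 1. All 22 S1PR4-/- samples were therefore below every WT sample, whose lowest count was 505. The residual counts in S1PR4-/- T cells gave a Tfh to non-Tfh log2 fold change of -0.40 (SE 0.30, adjusted p = 0.247).

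S1pr5 was barely detected. It had 0 to 12 counts in each of the 24 T cell samples, below the filter of every T cell comparison, 5 to 47 counts in WT GC B cells (median 26.5), and 0, 4, 0, 18 and 0 counts in WT non-GC B cells. S1pr5 passed the filter of the B cell comparisons only through GC B cells, so the filter favoured a rise there. The log2 fold change in WT B cells was 2.42 (SE 0.99, adjusted p = 0.045), and the groups overlapped. This call was lost with no filter on low counts (adjusted p = 0.0635), with the replicate block (0.0562) and with all 8 groups in 1 fit (0.0569), and when WT non-GC B cell replicate 1, 2, 3 or 5 was left out (adjusted p 0.0791 to 0.0857). In S1PR4-/- mice GC B cells had 7 to 44 counts and non-GC B cells 1, 39, 2 and 16, with a log2 fold change of 0.33 (SE 0.85, adjusted p = 0.75). Markers of NK or CD8 T cells, 6 genes, differed among the non-GC B cell samples: their summed level was 0.959, 0.819, 0.919, 44.8 and 23.4 CPM in WT and 0.677, 18.4, 7.56 and 19.7 CPM in S1PR4-/- samples, in the same order as the S1pr5 counts, against 0.415 to 4.21 CPM in GC B cells. The 3 non-GC B cell samples with 16 or more S1pr5 counts were among the 4 with the highest marker levels, the other being WT replicate 5 with 0 counts, and the part of these cells in the S1pr5 values was not tested.

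**Figure D2:**
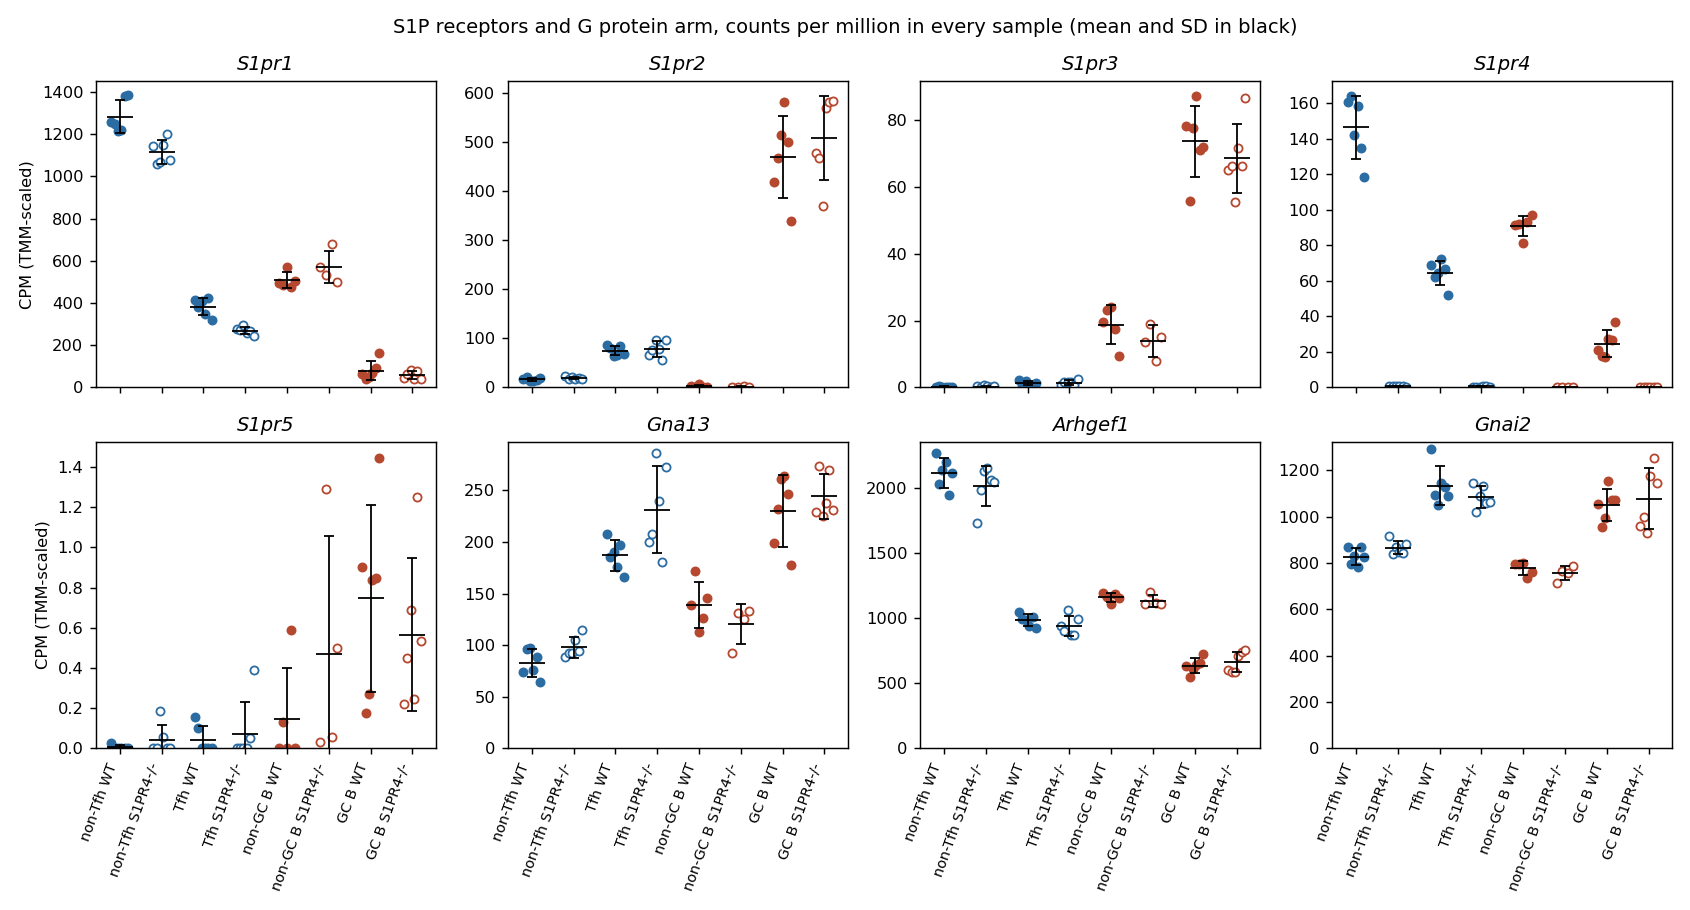
Level in CPM of the 5 receptors and 3 signalling genes in each of 45 samples (points, WT filled and S1PR4-/- open, T cells blue and B cells red), with the mean and SD of each group in black. S1pr1, S1pr4 and Arhgef1 were lower, and S1pr2, S1pr3, Gna13 and Gnai2 higher, in GC B than in non-GC B cells of WT mice, without overlap between the samples.

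The G protein arm downstream of S1PR2 did not move as one. Gna13 was higher in the GC populations: it ranged from 64.8 to 96.9 CPM (median 82.3) in WT non-Tfh cells and from 166.2 to 207.8 CPM (median 187.8) in WT Tfh cells. The WT non-GC B cell samples were at 139.2, 171.6, 112.8, 126.0 and 145.5 CPM, and the GC B cells ranged from 178.0 to 263.6 CPM (median 239.6). Neither pair of groups overlapped, and the log2 fold change was 1.18 (SE 0.10, adjusted p = 7.28e-08) in T cells and 0.80 (SE 0.13, adjusted p = 0.000109) in B cells of WT mice, with 1.25 (SE 0.11, adjusted p = 2.58e-07) and 1.08 (SE 0.11, adjusted p = 8.25e-06) in S1PR4-/- mice.

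Arhgef1 fell where Gna13 rose. It ranged from 1949 to 2271 CPM (median 2129) in WT non-Tfh cells and from 922.2 to 1051 CPM (median 988.8) in WT Tfh cells. The WT non-GC B cell samples were at 1194, 1161, 1106, 1186 and 1157 CPM, above all GC B cell samples, which ranged from 548.2 to 721.8 CPM (median 637.4). The log2 fold change was -1.11 (SE 0.05, adjusted p = 1.75e-10) in T cells and -0.80 (SE 0.07, adjusted p = 5.75e-07) in B cells of WT mice, and -1.09 (SE 0.07, adjusted p = 1.07e-08) and -0.71 (SE 0.09, adjusted p = 5.16e-05) in S1PR4-/- mice. Within a library, the ratio of Gna13 to Arhgef1 counts had a median of 0.0399 in WT non-Tfh cells, 0.190 in Tfh cells, 0.117 in non-GC B cells and 0.393 in GC B cells. Per kilobase the mean level of Arhgef1 was still above that of Gna13 in all 8 groups, at 82.2 ± 7.41 against 35.9 ± 5.42 CPM per kilobase (SD, n = 6) in WT GC B cells.

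Gnai2, the Gαi subunit used by chemokine receptors and S1PR1, was the most evenly expressed member. Its group means lay between 756.7 and 1134 CPM. It ranged from 780.8 to 867.4 CPM (median 826.9) in WT non-Tfh cells and from 1051 to 1294 CPM (median 1111) in WT Tfh cells, and the rise was small but free of overlap (log2 fold change 0.46, SE 0.05, adjusted p = 3.21e-06). In WT B cells the log2 fold change was 0.50 (SE 0.06, adjusted p = 1.55e-05), and in S1PR4-/- mice it was 0.34 (SE 0.04, adjusted p = 7.08e-06) in T cells and 0.57 (SE 0.10, adjusted p = 0.000403) in B cells. Between lineages no difference was detected in WT samples: GC B against Tfh cells gave -0.10 (SE 0.07, adjusted p = 0.198) and non-GC B against non-Tfh cells -0.03 (SE 0.05, adjusted p = 0.688).

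**Figure D3:**
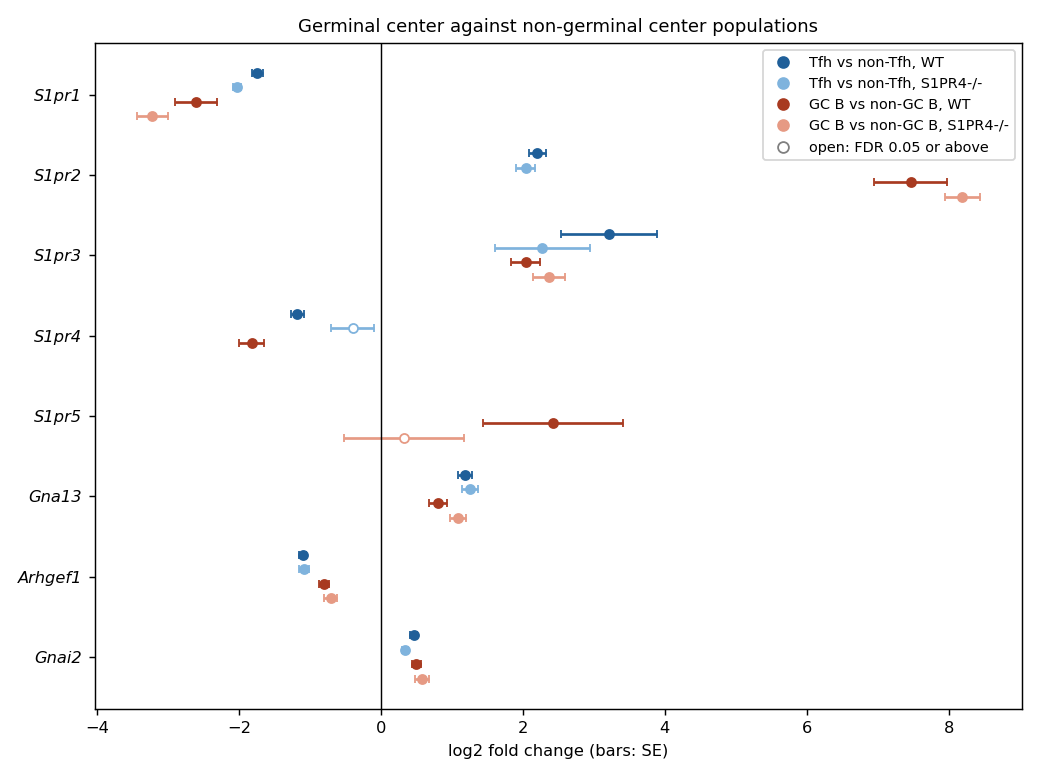
Log2 fold change with SE of each member in Tfh against non-Tfh cells (blue) and GC against non-GC B cells (red), in WT (dark) and S1PR4-/- mice (light), with open points where the adjusted p was 0.05 or above. Among the changes that passed, S1pr1, S1pr4 and Arhgef1 are left of 0 and S1pr2, S1pr3, S1pr5, Gna13 and Gnai2 right of it, and genes below the filter have no point. S1pr3 in T cells and S1pr5 in B cells passed the filter only through the population where they were higher. The filter thus favoured a rise for them.

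These counts have to be read against how much of the transcriptome moved. S1pr3 entered the T cell comparisons, and S1pr5 the B cell comparisons, only through the population where its level was higher, and both are left out of these counts, as is S1pr3 between non-GC B and non-Tfh cells. Of the other 6 members tested in WT T cells, 6 passed (3 higher and 3 lower), where 68.7% of all tested genes passed in Tfh against non-Tfh cells, 34.8% higher and 33.9% lower. In S1PR4-/- T cells, 5 of 6 passed (3 higher and 2 lower) against a background of 70.7%, with 36.1% higher and 34.6% lower. In WT B cells, 7 of 7 passed (4 higher and 3 lower) against 67.2%, with 34.3% higher and 32.9% lower, and in S1PR4-/- B cells 6 of 6 passed (4 higher and 2 lower) against 64.6%, with 33.6% higher and 31% lower. With so few members the counts are not a result about them, and what sets the members apart from one another is size and direction. The median log2 fold change of these members was -0.32 in WT T cells and 0.50 in WT B cells, and those of all tested genes were 0.00025 and 0.0021. With S1pr3 kept, the median in WT T cells was 0.46, so its sign turned on 1 member. For so few members of opposite direction, no net shift can be read from these medians. In bulk samples, a lower level in all cells and fewer cells that express the gene cannot be told apart.

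The lineages differed for most members as well. In WT GC B against Tfh cells 6 of 7 tested members passed (3 higher and 3 lower) and in non-GC B against non-Tfh cells 5 of 6 (1 higher and 4 lower), where 67.8% and 57.3% of all genes passed. S1pr1 was lower in B cells at both stages (log2 fold changes -2.25, SE 0.28, adjusted p = 8.61e-06, and -1.28, SE 0.07, adjusted p = 1.96e-09), as were S1pr4 (-1.38 and -0.63, adjusted p = 7.24e-06 and 3.1e-05) and Arhgef1 (-0.62 and -0.81, adjusted p = 2.25e-06 and 3.51e-08). Gna13 was higher in B cells (0.31 and 0.81, adjusted p = 0.0118 and 7.06e-05). The GC shift itself differed between lineages for 5 of 8 members, against 41.7% of all genes: for S1pr2, S1pr4 and S1pr1 as given above, for Gna13 by -0.45 (SE 0.16, adjusted p = 0.0301) and for Arhgef1 by 0.24 (SE 0.09, adjusted p = 0.0339) in B cells relative to T cells. S1pr3 and S1pr5, left out of the earlier counts, are among these 8 and did not pass. For S1pr3 the difference was -1.25 (SE 0.61, adjusted p = 0.103), and it passed by DESeq2 (adjusted p = 0.0382) and without WT non-Tfh replicate 2, the sample with 14 counts (-2.002, adjusted p = 0.0139 by edgeR). The Gna13 and Arhgef1 differences lost significance when single samples of either lineage were left out (adjusted p up to 0.0825 and 0.0623), that of Arhgef1 also with no filter on low counts (0.103), and 3 members passed without WT non-Tfh replicate 1.

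Few members passed the test between genotypes. In Tfh cells 2 of 7 tested members passed, S1pr4 and S1pr1, where 1.41% of all genes passed. In non-Tfh cells 1 of 6, in GC B cells 1 of 8 and in non-GC B cells 1 of 7 passed, S1pr4 in each, against 0.235%, 0.0612% and 0.0537% of all genes. S1pr4 is the deleted gene, so its call was fixed by the design and is not a result about the other members. Apart from S1pr4, only S1pr1 in Tfh cells passed by edgeR. S1pr1 in Tfh cells ranged from 321.6 to 424.5 CPM in WT and from 244.1 to 293.7 CPM (median 272.0) in S1PR4-/- samples. The groups did not overlap, and the mean fell from 382.9 ± 40.7 to 269.2 ± 17.0 CPM (SD, n = 6 each), a log2 fold change of -0.51 (SE 0.07, adjusted p = 0.00575). Leaving out any 1 sample kept the adjusted p between 0.00129 and 0.0211.

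Other properties of the samples moved with the S1pr1 difference in Tfh cells, and their part in it was not tested beyond these values. The score of B cell markers (mean log2 CPM) was 3.32 ± 1.27 in WT and 1.03 ± 1.47 in S1PR4-/- Tfh samples (SD, n = 6 each), and with it as a covariate the log2 fold change was -0.41 (adjusted p = 0.105). The score of plasma cell markers was 4.08 ± 0.82 and 2.35 ± 0.73 in the same samples, and that of GC B cell markers 0.29 ± 0.43 and -0.57 ± 0.28. By whether Xist or Ddx3y had more counts, 5 of 6 WT and 2 of 6 S1PR4-/- Tfh samples came from females. Among female samples S1pr1 was at 321.6 to 424.5 CPM in 5 WT and 257.4 and 269.4 CPM in 2 S1PR4-/- samples, the single WT male sample was at 410.5 CPM, and the 4 S1PR4-/- male samples were at 244.1 to 293.7 CPM, so that the groups did not overlap within either sex. With sex as a covariate the log2 fold change was -0.55 (adjusted p = 0.0104). With all 8 groups in 1 fit it was -0.51 with an adjusted p of 0.199. By DESeq2 it was -0.51 (adjusted p = 2.73e-08), where DESeq2 called 1019 genes in this comparison and edgeR 190.

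In non-Tfh cells S1pr1 ranged from 1215 to 1385 CPM in WT and from 1060 to 1203 CPM in S1PR4-/- samples, again without overlap, but the log2 fold change of -0.20 (SE 0.05, adjusted p = 0.145) did not pass, and DESeq2 gave an adjusted p of 0.0311. The difference between the Tfh and non-Tfh effects was -0.31 (SE 0.09, unadjusted p = 0.00165, adjusted p = 0.237) and was not established. In GC B cells the log2 fold change of S1pr1 was -0.44 (SE 0.32, adjusted p = 0.985), and it was -0.10 without WT replicate 6. In non-GC B cells it was 0.17 (SE 0.09, adjusted p = 0.981). The direction was thus lower in 3 populations and higher in the other, with overlapping samples in both B cell populations.

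S1pr2 showed no detectable difference between genotypes. The log2 fold change was 0.06 (SE 0.13) in Tfh, 0.24 (SE 0.11) in non-Tfh, 0.11 (SE 0.13) in GC B and -0.59 (SE 0.58) in non-GC B cells, with adjusted p of 0.854, 0.444, 0.985 and 0.985. In GC B cells its 95% interval ran from -0.15 to 0.37, whereas the few counts in non-GC B cells left an interval of -1.73 to 0.56. S1pr3 in GC B cells had a log2 fold change of -0.11 (SE 0.11, adjusted p = 0.985).

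Gna13 ranged from 180.5 to 286.1 CPM (median 223.9) in S1PR4-/- Tfh samples against 166.2 to 207.8 CPM in WT, with overlap and a log2 fold change of 0.30 (SE 0.11, adjusted p = 0.142). It was 0.24 (SE 0.10, adjusted p = 0.381) in non-Tfh, 0.08 (SE 0.10, adjusted p = 0.985) in GC B and -0.20 (SE 0.13, adjusted p = 0.981) in non-GC B cells. For Arhgef1 and Gnai2 the log2 fold changes lay between -0.07 and 0.07 in all 4 populations, and none passed. No member passed the test of a genotype difference in GC shift. In T cells 0 of 7 tested members passed the edgeR test of that difference, where 0.0139% of all genes passed. At an unadjusted p under 0.05 by edgeR were 3 members, S1pr1, Gnai2 and the deleted S1pr4, and 1325 of all 14401 tested genes. DESeq2 called 0 members and 77 of all genes. In B cells 0 of 8 members passed by edgeR, 0 had an unadjusted p under 0.05 and 0 passed by DESeq2. Of all genes there, 0% passed by edgeR, 664 had an unadjusted p under 0.05 and 7 passed by DESeq2.

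**Figure D4:**
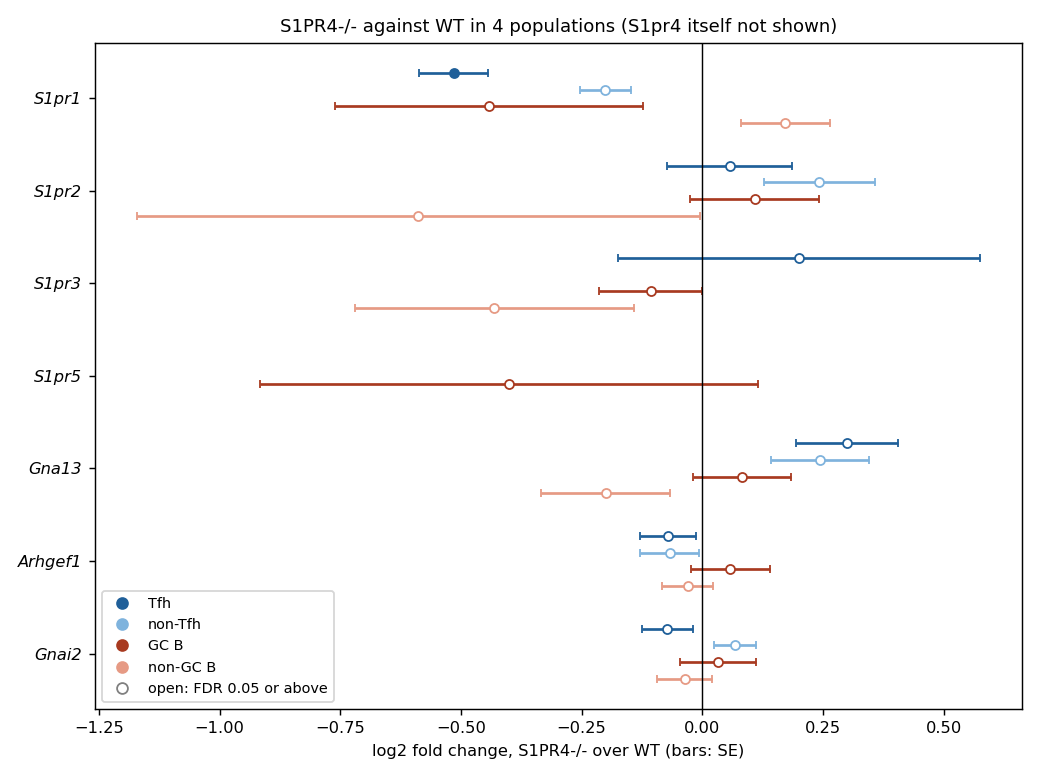
Log2 fold change with SE in S1PR4-/- against WT samples for 7 members (S1pr4 left out) in Tfh, non-Tfh, GC B and non-GC B cells, with open points where the adjusted p was 0.05 or above. S1pr1 in Tfh cells, at -0.51, is the single filled point.

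The pathway around the members was followed through 21 further genes: other Gα, β and γ subunits and the Gα chaperone Ric8a, the RhoA exchange factors Arhgef11 and Arhgef12, RhoA and its kinases, the Rac arm, Cd69, and the receptor internalization genes Grk2 and Dnm2. Gnai1, with at most 17 counts in any sample, was below the filter in every comparison, and 20 were tested. In WT Tfh against non-Tfh cells 12 were higher and 5 lower, where 34.8% and 33.9% of all genes were, and in WT GC against non-GC B cells 6 were higher and 11 lower, where 34.3% and 32.9% were, with medians of 0.24 and -0.20. In S1PR4-/- mice 10 were higher and 5 lower in T cells (36.1% and 34.6% of all genes), and 7 were higher and 7 lower in B cells (33.6% and 31%). The largest change in WT T cells was that of Gng2, a γ subunit, at a log2 fold change of 2.52 (SE 0.12, adjusted p = 2.02e-10), followed by Gna15, a Gαq family subunit of hematopoietic cells, at 1.87 (SE 0.17, adjusted p = 1.59e-07), and Gnaq, the Gαq subunit, at 1.24 (SE 0.30, adjusted p = 0.00194). Gnaq was low in T cells, with means of 3.01 CPM in WT Tfh and 1.27 CPM in WT non-Tfh samples. Its mean in WT non-GC B cells was 9.48 CPM. In S1PR4-/- T cells its log2 fold change was 0.51 (SE 0.22, adjusted p = 0.0526).

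In WT B cells the largest was Arhgef12, a second exchange factor that couples Gα12/13 to RhoA, at 1.79 (SE 0.28, adjusted p = 8.61e-05). Its mean level was 16.1 ± 2.49 CPM in GC B cells (SD, n = 6) and 4.87 ± 2.33 CPM in non-GC B cells (SD, n = 5), and it also rose in T cells (1.12, SE 0.17, adjusted p = 2.85e-05), opposite to Arhgef1. Cd69, whose product binds S1PR1 and removes it from the cell surface, was next at -1.49 (SE 0.19, adjusted p = 1.46e-05) in B cells, with -1.23 (SE 0.11, adjusted p = 9.85e-08) in T cells. Cd69 was thus lower in the GC populations, as was S1pr1. Gna15 was -1.19 (SE 0.14, adjusted p = 7.6e-06) in GC against non-GC B cells of WT mice and 1.58 (SE 0.61, adjusted p = 0.0411) in those of S1PR4-/- mice, the latter call being lost with the replicate block (0.174) and without any 1 of 7 samples (adjusted p up to 0.0769). The difference of 2.77 (SE 0.56, unadjusted p = 7.87e-05) had an adjusted p of 0.393 by edgeR, 0.000333 by DESeq2 and 0.0264 with all 8 groups in 1 fit, and of 0.00405 without S1PR4-/- non-GC B cell replicate 1, which had 2 Gna15 counts. Gna15 is a chromosomal neighbour of S1pr4, as described below.

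**Figure D5:**
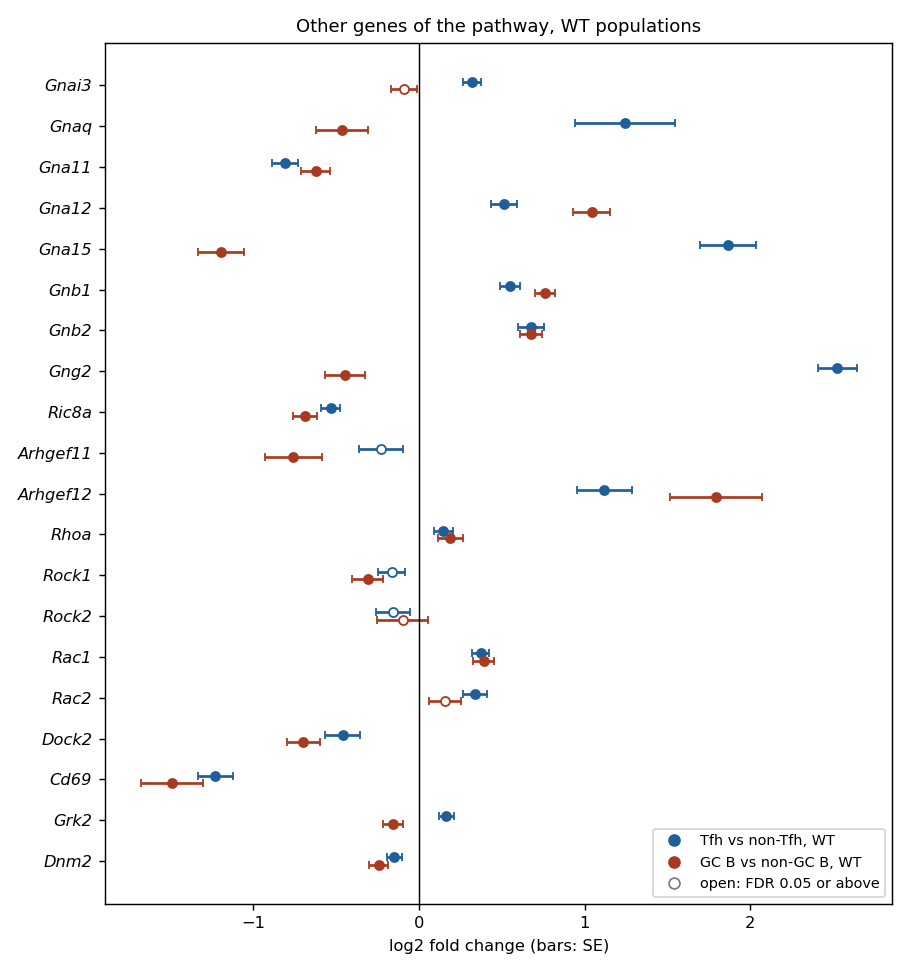
Log2 fold change with SE of the 20 tested pathway genes in WT Tfh against non-Tfh cells (blue) and WT GC against non-GC B cells (red), with open points where the adjusted p was 0.05 or above. Gng2 at 2.52 in T cells and Arhgef12 at 1.79 in B cells are the points farthest to the right for their lineage, and Cd69 is the farthest to the left in both.

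Between genotypes, 1 of 20 pathway genes passed in Tfh, GC B and non-GC B cells, Gna15 in each, and 0 of 20 in non-Tfh cells by edgeR (1.41%, 0.0612%, 0.0537% and 0.235% of all genes in the same order). In non-Tfh cells 4 of the 20 had an unadjusted p under 0.05 by edgeR, as had 1486 of all 13197 tested genes. DESeq2 called 1 pathway gene there, and 247 of 12519 genes in all. Gna15 lies just upstream of S1pr4 on the same strand of chromosome 10. An effect of the altered S1pr4 locus on this neighbour and a response to the loss of the receptor cannot be told apart in this design. The mean of Gna15 was 28.5 ± 5.55 CPM in WT and 8.92 ± 3.05 CPM in S1PR4-/- Tfh cells (log2 fold change -1.68, SE 0.22, adjusted p = 0.00335), and 11.01 ± 1.60 and 4.34 ± 1.40 CPM in GC B cells (-1.35, SE 0.20, adjusted p = 0.0277, SD, n = 6 each). In non-GC B cells it was 26.4 ± 4.63 CPM (n = 5) and 1.52 ± 0.97 CPM (SD, n = 4), a log2 fold change of -4.10 (SE 0.53, adjusted p = 0.014), and in non-Tfh cells -0.83 (SE 0.32, adjusted p = 0.342). The calls in both B cell populations did not hold when single samples were left out (adjusted p up to 0.108 in GC B and 0.0864 in non-GC B cells), and that in GC B cells was also lost with all 8 groups in 1 fit (0.18) and with the T cell marker score as a covariate (0.0575).

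Genes with patterns like those of the members were looked for over the 23 WT samples, which share 4 populations, so that these Pearson correlations describe the order of populations more than the spread within them. Of 12029 genes with a mean of at least 1 CPM, Klf3, a Krüppel-like repressor, was closest to S1pr1 (r = 0.992), and Grap2, an adaptor of T cell receptor signalling, was closest to S1pr4 (r = 0.989), with Klf3 next (r = 0.989). Rnaseh2b, a subunit of ribonuclease H2, was closest to S1pr2 (r = 0.971), followed by the replication helicase gene Mcm4 (r = 0.969) and the methyl-CpG binding gene Mbd2 (r = 0.969). Scimp, an adaptor of antigen-presenting cells, was closest to S1pr3 (r = 0.981). For S1pr5 the closest was Rgs13, a regulator of G protein signalling in GC B cells (r = 0.888). E2f3 was closest to Gna13 (r = 0.956), Smad4 to Arhgef1 (r = 0.988) and the actin nucleation gene Arpc4 to Gnai2 (r = 0.970). Over the 22 S1PR4-/- samples, which the ranking did not use, r was 0.984 for Klf3 with S1pr1, 0.915 for Rnaseh2b with S1pr2, 0.954 for Scimp with S1pr3 and 0.694 for Rgs13 with S1pr5.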

How the data were processed

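The members and gene lists were chosen with earlier results of these data known. The authors deposited expected counts per gene. Their processing notes name cutadapt 2.10, STAR 2.5.3, Picard, RSEM 1.3.0 and the build mm10. Libraries were stranded, and whether the counting used strand is not given in the sources used here, so reads of genes overlapped by a gene on the other strand (S1pr3, S1pr5, Gna13) or the same strand (Gnai2) could be shared. Here the expected counts were rounded, filtered with filterByExpr, scaled by TMM and tested with edgeR 4.0.16 (quasi-likelihood, R 4.3.3) on the groups compared, with Benjamini-Hochberg adjustment over all tested genes and a call at 0.05. SE is the log2 fold change over the root of F. Intervals are 95%, by the normal approximation. CPM uses TMM library sizes, levels per kilobase use the exon union of GENCODE M21 (the study names M30), and log2 CPM for likeness and marker scores used a prior of 2 counts. Alternatives were DESeq2 1.42.0, its size factors, no filter, all 8 groups in 1 fit, a replicate block, sex and marker covariates, and leaving out each sample. Totals ranged from 26299429 to 45548215 counts. Replicates differed beyond sampling noise. Named genes are the 8 members, pathway genes passing between genotypes, the 3 largest passing pathway changes per WT lineage, and the genes most like each member. The tests were checked on simulated data. The methods give 6 WT and 6 S1PR4-/- mice for the sorts. The labels do not tie samples to mice, and p-values measure the spread between these samples.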

Additional observations from a re-analysis of the deposited data

Results flagged for a closer look

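A sample far from the rest of its group was seen in 8 of the 64 sets of member levels. The rule flags about 1 in 20 sets only where values spread normally. Sets with few counts do not, so no excess can be read from this number. For the abundant members these were S1pr1 in WT non-GC B cells (replicate 3, 573.0 CPM) and Arhgef1 in S1PR4-/- non-GC B cells (replicate 2, 1201 CPM). S1pr2 in WT non-GC B cells was at 7.12 CPM in replicate 3, the same sample as for S1pr1, and without it the log2 fold change of S1pr2 between genotypes in non-GC B cells was 0.17 in place of -0.59, neither passing the test. The other 5 were at or below 18 counts: S1pr4 in S1PR4-/- GC B cells (replicate 1, 0.111 CPM), and S1pr5 in S1PR4-/- Tfh (replicate 6, 0.391 CPM), WT non-GC B (replicate 4, 0.591 CPM), S1PR4-/- non-Tfh (replicate 3, 0.187 CPM) and WT non-Tfh cells (replicate 1, 0.0255 CPM).

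The GC shift differed between the B and T lineages of WT mice, by the test of the difference itself, for 5 members: S1pr2 (5.20), S1pr1 (-0.92), S1pr4 (-0.71), Gna13 (-0.45) and Arhgef1 (0.24), all on the log2 scale. For S1pr1, S1pr2, S1pr4, Gna13 and Arhgef1 the direction of the shift was the same in both lineages, and the size was what differed. Lineage and day of collection cannot be told apart in these values.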

How the results depend on the processing

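Of 547 refits of single members under other settings, 535 kept direction and side of the threshold, 7 lost and 2 gained a call, and 3 changed sign. Leaving out 1 sample did so in 1004, 16, 1 and 8 of 1029 refits, and no member that had passed changed sign. Sign changes among the alternatives were S1pr2 (-0.012) and S1pr3 (-0.081) in Tfh cells between genotypes with a sex covariate, and Arhgef1 (0.042) there with a B cell marker covariate. Among members called between genotypes, the deleted S1pr4 included, Tfh cells had 1 in place of 2 with all 8 groups in 1 fit and with the marker covariate, and non-Tfh cells had 2 in place of 1 by DESeq2. The cause was not tested. Leaving out each sample, the members called were unchanged in number in 11 of the 13 comparisons, and ranged from 7 to 8 in WT GC against non-GC B cells and from 3 to 6 for the difference in GC shift between lineages. Log2 fold changes that crossed 0 ranged from -0.015 to 0.13 for S1pr2 and from -0.024 to 0.40 for S1pr3 in Tfh cells, from -0.018 to 0.066 for Gnai2 in GC B cells and from -0.83 to 0.17 for S1pr2 in non-GC B cells between genotypes, and from -0.086 to 1.54 for S1pr5 in S1PR4-/- B cells. S1pr3 differed in GC shift between lineages by DESeq2 (adjusted p = 0.0382).

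Same-numbered samples were compared within each lineage and genotype. In T cells the correlations of their deviations were all positive, from 0.0454 to 0.205, and same-numbered Tfh and non-Tfh samples always had the same sex. In B cells the correlations ranged from -0.0452 to 0.103, and some same-numbered samples differed in sex. The labels give no pairs, so the main tests took the samples as independent. If the T cell numbers mark single mice, those tests ignored that pairing. Every S1PR4-/- T cell sample (12 of 12) correlated best with its own number in the other T cell population, a hint from the data and not the design, against 8 of 12 in WT T cells, 6 of 10 in WT B cells and 0 of 8 in S1PR4-/- B cells. With the replicate block, 7 of 8 members passed in WT GC against non-GC B cells, since S1pr5 had an adjusted p of 0.0562, and Gna15 between genotypes had 0.275 in GC B and 0.209 in non-GC B cells, and 0.174 in S1PR4-/- GC against non-GC B cells. Between genotypes the block joins different mice by number alone, so a call lost there does not show that the difference is weak. The block changed no other call named here. The CPM over total counts left 38 of 56 neighbouring group pairs overlapping, against 37. Counts of all genes called between genotypes moved by over 1.5 times in Tfh cells, from 190 to 1019 by DESeq2, 686 with a sex covariate and 13 with the marker covariate. They moved from 31 to 247, 9 and 11 in non-Tfh cells under the same settings and to 49 with the block, from 8 to 17 by DESeq2 in GC B cells, and from 7 to 30 in non-GC B cells by DESeq2 and with all 8 groups in 1 fit. The genotype difference in GC shift moved in T cells from 2 genes to 77 by DESeq2, 10 with the block, 8 with a sex covariate and 1 with the marker covariate, and in B cells from 0 to 7 by DESeq2 and 5 with all 8 groups in 1 fit. Depth limits S1pr5 in all samples and S1pr3 in T cells.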
